A study of Homo sapiens with 6 samples.

Results

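The genes followed here are 46 named genes of the interferon response and of antigen presentation by major histocompatibility complex (MHC) class I molecules, picked by symbol from the 58233 gene rows of the deposited table. The cells were HGC-27, an established line from an undifferentiated human gastric cancer, grown in medium with serum, and all libraries come from this 1 line. One group, labelled siSTRN3, received a mixture (pool) of siRNAs against STRN3, the gene of striatin-3. The other, labelled siNC, received a negative control siRNA. Each group had 3 libraries, all made from cells harvested 72 h after transfection with the lipid reagent RNAIMAX. Because siRNA and lipid were given to both groups, anything they raised equally in both does not show in this comparison. The question put to these genes was whether the pool raised RNA sensing and antigen presentation above the control siRNA. Levels are in TPM, a share of each library's total corrected for transcript length. Read depth cannot be recovered from TPM, so no counting interval is given. The labels speak of triplicates but not of separate cultures, so the spread behind every p-value may be technical only. TPM from bulk RNA cannot tell fewer expressing cells from less RNA per cell.

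The pool's target, STRN3, did not show a lower level where the pool is named on the label. It stood at 4.76, 5.0 and 5.56 TPM in the libraries labelled siSTRN3, against 3.51, 5.3 and 3.85 TPM in the siNC libraries. The groups overlapped on this scale (exact two-sided permutation test p = 0.3, where 0.1 is the smallest that 3 against 3 allows). For that reason the groups are named by their labels, and every direction below is that of the libraries labelled siSTRN3. The median over the tested rows was 6.46 to 6.62 TPM in these libraries, against 10.2 to 10.4 TPM in the siNC libraries, and protein-coding rows held 51.7% to 52.9% of the TPM total, against 76.9% to 78.3%. Each library was therefore multiplied by 1 factor that gave all 6 the same median. A log2 fold change therefore says how a gene moved against the median gene. It was taken on log2(TPM + 1), where differences between low values come out too small. "Rose" and "fell" refer to this relative scale and to an adjusted p under 0.05 (limma, Benjamini-Hochberg over all tested rows). Levels are as deposited unless called median-scaled. What part the differing RNA makeup has in any fold change was not tested. Relative to the median gene STRN3 rose (log2 fold change 0.77 ± 0.13 SE, adjusted p = 0.00894). As deposited it did not pass (0.24, adjusted p = 0.142). The label calls the line undifferentiated, and each of 5 epithelial markers (EPCAM, CDH1, KRT8, KRT18 and KRT19) averaged under 1 TPM in both groups. Of 3 mesenchymal markers VIM was abundant, with 1753, 1718 and 1741 TPM in the libraries labelled siSTRN3 and 2984, 2992 and 3058 TPM in the siNC libraries, FN1 was present and CDH2 was at most 0.11 TPM. The 7 leukocyte markers summed to 1.34 to 2.14 TPM in the libraries labelled siSTRN3 and to 1.62 to 2.56 TPM in the siNC libraries, with HLA-DRA listed at 0 in all 6. The 3 endothelial markers summed to at most 0.01 TPM in the libraries labelled siSTRN3 and 0.02 TPM in the siNC libraries.

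Double-stranded RNA in the cytoplasm is recognised by RIG-I and MDA5, which signal through MAVS, and in endosomes by TLR3. DNA is recognised by cGAS, which signals through STING. Both routes activate IRF3 and IRF7 and lead to secretion of type I interferon, which binds the receptor IFNAR1/IFNAR2 and activates ISGF3, a transcription factor complex with STAT2 and IRF9 that switches on antiviral genes. Short double-stranded RNAs are known to trigger this response in some cells. Interferon also raises the class I heavy chains, their light chain B2M, and the peptide loading machinery that presents fragments of cell proteins to cytotoxic T cells.

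ISGF3 and the IRF factors bind the interferon-stimulated response element. Its core, searched here on both strands as GAAA, any 2 bases and GAAA again, was looked for in the RefSeq promoter windows (GRCh38.p14, 250 bases before to 50 after each start). Of the 46 genes 32 had a window, and 19 of these (59.4%) held the core, against 4.38% of 27305 gene symbols counted the same way and 3.57% of all 35116 windows. The longer form, the core followed by C, was in 14 of the 32, against 0.952% of symbols and 0.795% of windows. The gamma-activated site TTCNNNGAA was in 10 of the 32, against 9.38% of symbols and 7.66% of windows, and CCAAT in 16, against 39.7% of symbols and 34.6% of windows. The genes not matched to a window were IFIT2, IFITM2, OAS2, OASL, USP18, DHX58, IRF2, IRF3, IRF7, IFNAR2, HLA-E, NLRC5, TMEM173 and MB21D1. A match describes letters and is not shown to be a binding site. Stretches of 7 promoters are shown, each upstream of the start and read 5′ to 3′ on the gene's strand: those of the 3 genes with the core that rose, and for contrast those of IFIT1, IFITM3, B2M and TAP1, which hold the same core and were not called. Capitals mark the core, which reads TTTC, 2 bases and TTTC where it lies on the other strand.
ISG15 (chr1:1013372-1013411, plus strand): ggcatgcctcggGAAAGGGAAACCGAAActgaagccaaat
BST2 (chr19:17405733-17405772, minus strand): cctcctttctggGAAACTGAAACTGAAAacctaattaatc
TAPBP (chr6:33314079-33314110, minus strand): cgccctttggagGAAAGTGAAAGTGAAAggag
IFIT1 (chr10:89392495-89392541, plus strand): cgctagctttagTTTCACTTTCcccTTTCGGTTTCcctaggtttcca
IFITM3 (chr11:320874-320924, minus strand): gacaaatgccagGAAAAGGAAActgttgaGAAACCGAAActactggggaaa
B2M (chr15:44711361-44711400, plus strand): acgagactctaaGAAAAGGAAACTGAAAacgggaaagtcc
TAP1 (chr6:32853811-32853850, minus strand): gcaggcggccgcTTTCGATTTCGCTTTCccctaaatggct
All 7 stretches hold the core in 2 copies. The copies overlap in the 3 genes that rose and also in B2M and TAP1, which were not called.

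The interferon genes did not move together. Of the 46 genes 33 passed the filter of at least 1 TPM in at least 3 libraries, and of these 4 rose, TRIM25, BST2, TAPBP and ISG15, and 3 fell, HLA-C, STAT2 and TMEM173. These shares, 12.1% and 9.09%, lay near the background: of 13004 tested rows 11.0% rose and 10.4% fell. The median log2 fold change was 0.012 over the 33 genes and -0.0063 over all tested rows. As deposited none of the 33 was higher by limma, at an adjusted or an unadjusted p under 0.05, and 24 were lower, against 1.01% higher and 80.8% lower among all tested rows. All 7 called genes changed by less than 1.5-fold, from 0.785-fold for STAT2 to 1.37-fold for BST2. For each of the 33 the 95% interval of the relative change, taken gene by gene on log2(TPM + 1), lay inside a 2-fold change in either direction. With 0.1 TPM added in place of 1 the errors of IFNAR1 (0.46 ± 0.26 SE) and IFI44 (0.13 ± 0.39 SE) were wider. The bound is therefore given only for 1 TPM added. USP18 counts here by its own row, without its near copy USP41. Without siNC replicate 1 the counts were 1 that rose and 1 that fell, without siSTRN3 replicate 2 only 2 rose, and 1 fell without siNC replicate 2, siSTRN3 replicate 1 or siSTRN3 replicate 3.

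**Figure D1:**
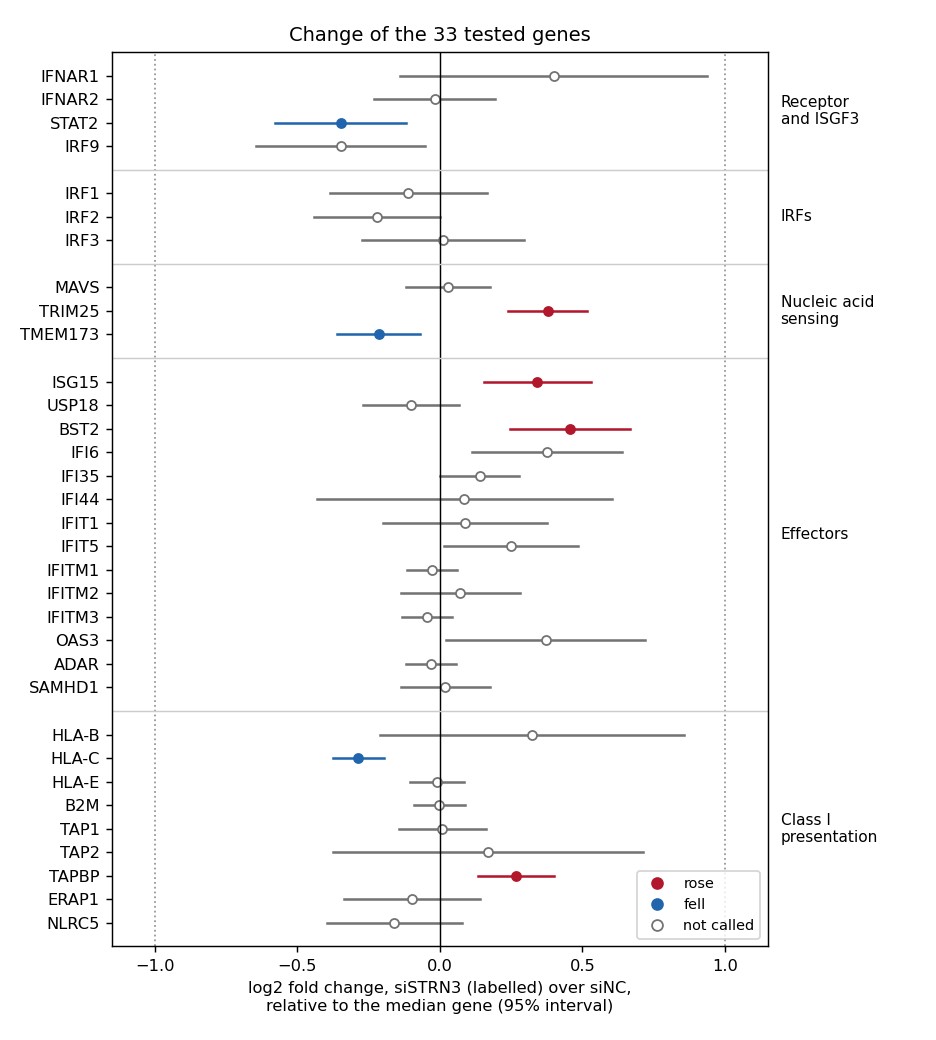
Log2 fold change of the 33 tested genes, libraries labelled siSTRN3 over siNC libraries (n = 3 each), relative to the median gene, with 95% intervals from limma on the horizontal axis and genes by role down the page. Filled points passed an adjusted p of 0.05: 4 rose, 3 fell, and every interval lies between the dotted lines at a 2-fold change.

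Many genes that define an interferon response were scarce or not seen in either group. Of the 46 genes 13 did not pass the filter, and 2 of them, MB21D1, the gene of cGAS, and OAS2, were listed at 0 in all 6 libraries. IFIH1, the gene of MDA5, was listed at 0 in all libraries but siNC replicate 3, which had 0.01 TPM. MX1, OAS1, OASL, IFIT2 and DDX58, the gene of RIG-I, stayed under 0.5 TPM in every library. IFI27, IFIT3, IRF7, DHX58 and TLR3 were above 0.5 TPM in some. At the other end, B2M, IFITM3, IFITM1, HLA-C and HLA-B had the highest means over all 6 libraries. Within a group the order differed: IFITM2 averaged more than HLA-C in the libraries labelled siSTRN3 (84.4 and 73.8 TPM) and more than HLA-B in the siNC libraries (126 and 118 TPM).

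**Figure D2:**
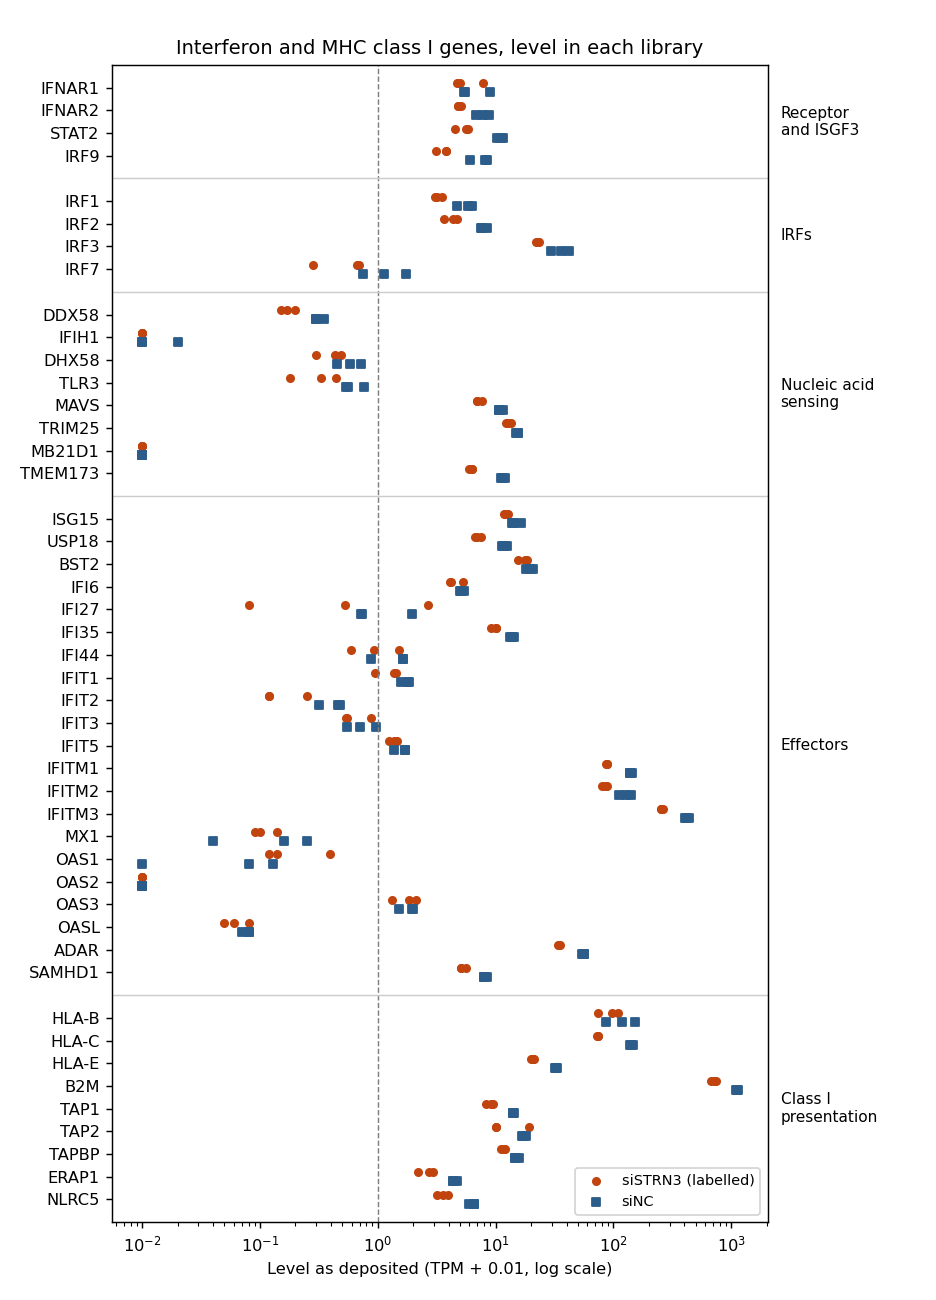
Level of all 46 genes in each library, in TPM as deposited with 0.01 added, on a logarithmic horizontal axis; circles are the libraries labelled siSTRN3, squares the siNC libraries, and the dashed line marks 1 TPM. MX1, OAS1, OAS2, OASL and IFIT2 and the sensors DDX58, IFIH1, DHX58, TLR3 and MB21D1 sit below 1 TPM in all 6 libraries, while B2M and the IFITM genes lie above 50 TPM.

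All 4 receptor and ISGF3 genes passed the filter. STAT2 fell and the other 3 were not called, where 11.0% of all tested rows rose and 10.4% fell. STAT2, a subunit of ISGF3 that is activated at the receptor (chromosome 12, 56341597 to 56360155, GRCh38), had 4.55, 5.81 and 5.62 TPM in the libraries labelled siSTRN3, against 11.0, 11.5 and 10.4 TPM in the siNC libraries. Its groups did not overlap on either scale, and it fell (log2 fold change -0.35 ± 0.10 SE, adjusted p = 0.0456). That call held without siSTRN3 replicate 2 and ended when any other library was left out (adjusted p = 0.0664 to 0.117). IRF9, the DNA-binding subunit, had 3.81, 3.13 and 3.8 TPM in the libraries labelled siSTRN3, against 8.05, 8.5 and 6.07 TPM in the siNC libraries, a log2 fold change of -0.35 with a wider error (± 0.12 SE, adjusted p = 0.0931, and 0.0394 without siNC replicate 3). An annotated transcript of AL136295.5 shares sequence with IRF9, and with both rows summed the value was -0.27. The receptor chains differed in spread. IFNAR1 ranged from 4.69 to 7.82 TPM in the libraries labelled siSTRN3 and from 5.43 to 9.0 TPM in the siNC libraries (log2 fold change 0.40 ± 0.23 SE, adjusted p = 0.249). Leaving out siSTRN3 replicate 1 brought it to 0.20, and leaving out siNC replicate 2 to 0.58. IFNAR2 was tighter, at -0.019 (95% interval -0.23 to 0.19).

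Interferon regulatory factors carry the signal to the promoters. IRF9 is 1 of them and is counted above with ISGF3 (unadjusted p = 0.0278 by limma). The other 3 tested factors were not called. None of these 3 had an unadjusted p under 0.05 by limma, though IRF2 was close to it (0.0513). IRF3, the constitutive factor downstream of the sensors, had a median-scaled mean of 28.5 ± 0.479 TPM in the libraries labelled siSTRN3 and 28.5 ± 5.11 TPM in the siNC libraries (SD, n = 3 each; log2 fold change 0.012, 95% interval -0.27 to 0.30). BCL2L12 overlaps its exons on the other strand at a similar level, so reads of the pair may not be separable. IRF1, an activator induced by interferon, stood at -0.11 (adjusted p = 0.531), and IRF2, its antagonist, at -0.22 (adjusted p = 0.138) with groups that did not overlap. IRF7, the inducible factor that amplifies interferon production, did not pass the filter, with 0.68, 0.65 and 0.27 TPM in the libraries labelled siSTRN3 and 1.72, 0.74 and 1.11 TPM in the siNC libraries.

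Among the sensing genes the adaptors were present and the sensors scarce. TRIM25, the ubiquitin ligase that activates RIG-I (chromosome 17, 56836387 to 56914080), had 12.2, 13.6 and 12.8 TPM in the libraries labelled siSTRN3, against 14.9, 15.4 and 15.4 TPM in the siNC libraries. Median-scaled, its mean was 16.1 ± 0.984 TPM in the libraries labelled siSTRN3 and 12.2 ± 0.222 TPM in the siNC libraries, and it rose (log2 fold change 0.38 ± 0.058 SE, adjusted p = 0.00704). This was the only one of the 4 rising genes whose call held without each library in turn (adjusted p = 0.0137 to 0.0314). As deposited it was lower (-0.23, adjusted p = 0.00657). C17orf67 overlaps exons of TRIM25 on the same strand, and the sum of the pair stood at 0.24. TMEM173, which encodes STING (chromosome 5, 139475534 to 139482935), had 5.9, 6.31 and 6.29 TPM in the libraries labelled siSTRN3 and 11.1, 11.99 and 11.2 TPM in the siNC libraries, and it fell (-0.21 ± 0.061 SE, adjusted p = 0.0487). That call lay at the threshold and ended whichever library was left out (adjusted p = 0.0682 to 0.131). MAVS, the mitochondrial adaptor of RIG-I and MDA5, stood at 0.029 (95% interval -0.12 to 0.18).

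The sensors themselves were too low for the test. DDX58 had 0.19, 0.14 and 0.16 TPM in the libraries labelled siSTRN3 and 0.29, 0.29 and 0.34 TPM in the siNC libraries. TLR3, the endosomal sensor, had 0.43, 0.32 and 0.17 TPM in the libraries labelled siSTRN3 and 0.75, 0.53 and 0.55 TPM in the siNC libraries. DHX58, which encodes the RIG-I relative LGP2, had 0.29, 0.48 and 0.42 TPM in the libraries labelled siSTRN3 and 0.57, 0.71 and 0.44 TPM in the siNC libraries. As deposited the groups overlapped only for DHX58, and median-scaled they overlapped for all 3. How often groups overlapped over all rows was not counted. As deposited 80.8% of all tested rows were lower, so the separation of DDX58 and TLR3 is not read as particular to them.

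Of 21 effector genes 14 were tested. By limma 2 rose (14.3%, against 11.0% of all tested rows). None fell (none at an unadjusted p under 0.05), against 10.4% of all tested rows. As deposited none was higher and 8 were lower, where 80.8% of all tested rows were lower. ISG15, the ubiquitin-like modifier (chromosome 1, 1001138 to 1014540), had 11.8, 11.9 and 12.6 TPM in the libraries labelled siSTRN3, against 14.2, 13.8 and 16.4 TPM in the siNC libraries. Median-scaled, these are 14.7 to 15.7 TPM and 10.8 to 13.2 TPM, without overlap. ISG15 rose (log2 fold change 0.34 ± 0.079 SE, adjusted p = 0.0259), and of the 6 leave-outs only the one without siNC replicate 3 kept its call (otherwise adjusted p = 0.0526 to 0.0873). As deposited it was lower (-0.26, adjusted p = 0.0154). BST2, or tetherin, which holds budding virus at the cell surface (chromosome 19, 17402939 to 17405648), had 17.9, 18.6 and 15.5 TPM in the libraries labelled siSTRN3 and 18.1, 19.5 and 20.6 TPM in the siNC libraries. It rose by the largest amount of the 33 genes, 1.37-fold (log2 fold change 0.46 ± 0.088 SE, adjusted p = 0.0145; adjusted p = 0.051 without siNC replicate 1). As deposited its groups overlapped and it did not pass (-0.16, adjusted p = 0.11).

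In 4 further effectors the estimates were positive with an unadjusted p under 0.05 by limma, and no call was made. With the genes that rose, 8 of the 33 reached that level upward, against 2352 of all 13004 tested rows. IFI6, an interferon-induced mitochondrial protein, had a log2 fold change of 0.38 ± 0.11 SE (adjusted p = 0.0552), OAS3, an oligoadenylate synthetase, 0.37 ± 0.15 SE (adjusted p = 0.119), IFIT5 0.25 (adjusted p = 0.12) and IFI35 0.14 (adjusted p = 0.132). The estimates of IFI6 and OAS3 were thus as large as that of ISG15, with wider errors. Without siSTRN3 replicate 1 OAS3 passed (adjusted p = 0.0451), and with the 75th percentile in place of the median IFI6 did (adjusted p = 0.0445). As deposited all 4 values were below 0. The IFIT proteins bind foreign RNA ends; IFIT1, a gene that responds strongly to interferon, had 1.36, 0.93 and 1.41 TPM in the libraries labelled siSTRN3 and 1.8, 1.82 and 1.57 TPM in the siNC libraries (log2 fold change 0.089, 95% interval -0.20 to 0.38). IFI44 stood at 0.085 (95% interval -0.43 to 0.60). IFIT3 had 0.53, 0.54 and 0.86 TPM in the libraries labelled siSTRN3 and 0.7, 0.54 and 0.95 TPM in the siNC libraries. IFI27 varied widely, with 0.52, 2.67 and 0.07 TPM in the libraries labelled siSTRN3 and 1.93, 0.71 and 0.72 TPM in the siNC libraries, so that the spread within the first group covered the second.

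The abundant effectors lay close to the median gene. IFITM3, a membrane protein that blocks virus entry, had 263, 255 and 255 TPM in the libraries labelled siSTRN3 and 412, 407 and 434 TPM in the siNC libraries (log2 fold change -0.045, 95% interval -0.13 to 0.044). Its neighbour IFITM1 had 87.3, 88.5 and 85.9 TPM in the libraries labelled siSTRN3 and 139, 137 and 143 TPM in the siNC libraries (-0.028, 95% interval -0.12 to 0.059). IFITM2, whose annotated exons overlap those of IFITM1, stood at 0.071, and the sum of both at 0.019. For ADAR, which edits double-stranded RNA, the value was -0.032 (95% interval -0.12 to 0.056), and for SAMHD1, a nucleotide hydrolase that limits retroviruses, 0.019 (95% interval -0.14 to 0.18). USP18, the protease that removes ISG15, stood at -0.10 (adjusted p = 0.34), but its row cannot be read alone. USP41, a copy with 99.0% identity, had 0, 0 and 0.06 TPM in the libraries labelled siSTRN3 and 47.1, 14.8 and 46.8 TPM in the siNC libraries, and the sum of both rows stood at -1.92. The split of reads between them is not given in the sources used here, so the direction of USP18 is uncertain.

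All 9 genes of class I presentation passed the filter, with a median log2 fold change of -0.0015. Of these 1 rose and 1 fell (11.1% each way, against 11.0% and 10.4% of all tested rows), and 7 were not called. As deposited none of the 9 was higher and 7 were lower, where 80.8% of all tested rows were lower. B2M, the light chain shared by all class I molecules, was the most abundant of the 46, with 677, 713 and 743 TPM in the libraries labelled siSTRN3 and 1094, 1124 and 1133 TPM in the siNC libraries. Median-scaled, its mean was 891 ± 39.8 TPM in the libraries labelled siSTRN3 and 891 ± 19.2 TPM in the siNC libraries (log2 fold change -0.0015, 95% interval -0.091 to 0.088). Of the heavy chains among the 46 genes only HLA-C was called. HLA-C (chromosome 6, 31268749 to 31272130) had 72.8, 74.2 and 74.3 TPM in the libraries labelled siSTRN3 and 138, 140 and 147 TPM in the siNC libraries, without overlap on either scale. It fell by 0.29 ± 0.038 SE on the log2 scale (adjusted p = 0.0041), and the call held with each library left out in turn (adjusted p = 0.0114 to 0.0175). HLA-B had 97.5, 73.7 and 109 TPM in the libraries labelled siSTRN3 and 152, 86.0 and 117 TPM in the siNC libraries, so its groups overlapped (0.32 ± 0.22 SE, adjusted p = 0.339). Its value rested on single libraries: it was 0.10 without siNC replicate 2, 0.21 without siSTRN3 replicate 3 and 0.52 without siNC replicate 1. HLA-E, the ligand of inhibitory receptors on natural killer cells, had 21.1, 19.8 and 20.9 TPM in the libraries labelled siSTRN3 and 32.3, 33.5 and 31.9 TPM in the siNC libraries (-0.0095, 95% interval -0.10 to 0.086). Annotated exons of HLA-B and HLA-C overlap and the genes are alike and highly variable between people, so reads may be split between them; summed, the pair stood at 0.015.

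The loading machinery was mixed. TAPBP, or tapasin, which joins class I molecules to the peptide transporter (chromosome 6, 33299694 to 33314387), had 11.1, 11.9 and 11.8 TPM in the libraries labelled siSTRN3 and 14.5, 15.7 and 14.6 TPM in the siNC libraries. It rose (log2 fold change 0.27 ± 0.055 SE, adjusted p = 0.0185), and the call ended without siNC replicate 1 or 3 or siSTRN3 replicate 2 (adjusted p = 0.0621, 0.0571 and 0.052). As deposited it was lower (-0.34, adjusted p = 0.00124). TAP1, the first subunit of the transporter, stood at 0.0087 (95% interval -0.14 to 0.16). For TAP2, its partner, siSTRN3 replicate 1 stood apart at 19.1 TPM, beside 10.0 and 10.1 TPM in the other libraries with that label and 17.04, 18.3 and 16.8 TPM in the siNC libraries. Its log2 fold change was 0.17 with all libraries and -0.12 without siSTRN3 replicate 1 (adjusted p = 0.64 and 0.204). An annotated transcript of AL669918.1 shares sequence with TAP2, and with both rows summed the value over all libraries was 0.23. ERAP1, which trims peptides in the endoplasmic reticulum and overlaps CAST on the other strand, stood at -0.098 (adjusted p = 0.523), and NLRC5, the transactivator of class I genes, at -0.16 (adjusted p = 0.29).

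**Figure D3:**
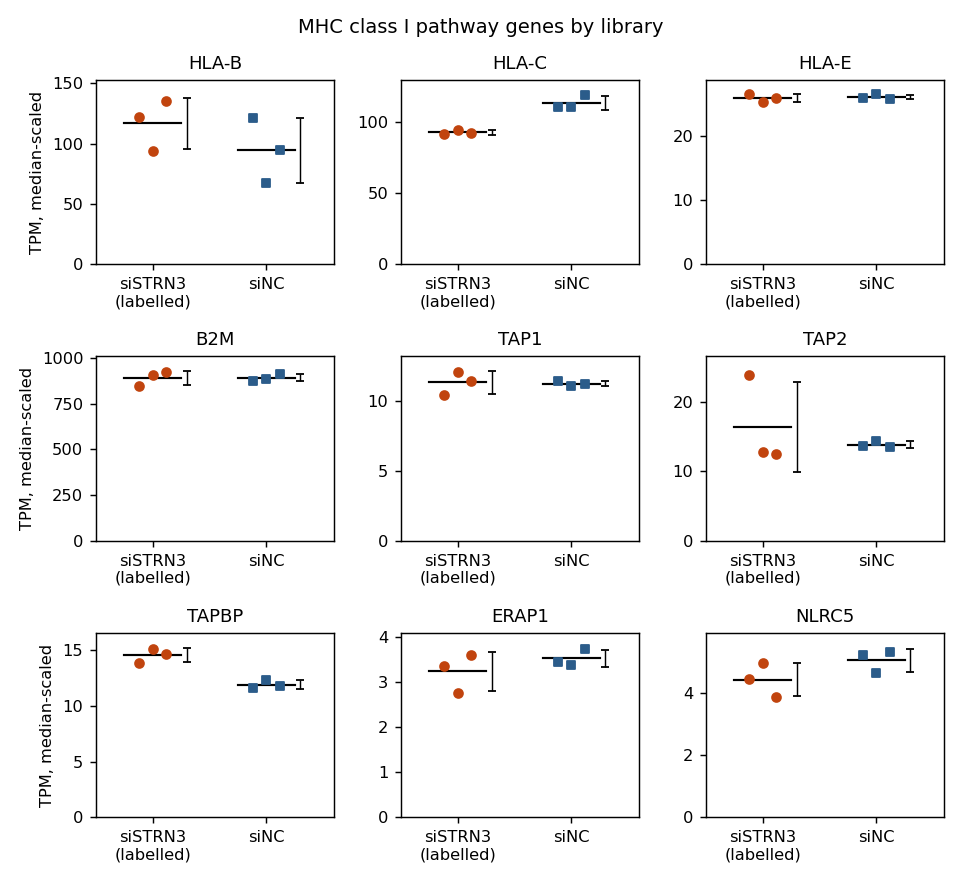
Median-scaled TPM of the 9 class I presentation genes in each library, on linear axes that start at 0, with the libraries labelled siSTRN3 left of the siNC libraries. Horizontal lines are means and bars SD (n = 3 each); HLA-C is lower and TAPBP higher without overlap, B2M and HLA-E overlap, and 1 library labelled siSTRN3 stands apart for TAP2.

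The response element did not sort the genes cleanly. Of the 14 tested genes with the core in their promoter window 3 rose and the other 11 were not called, and of the 11 with a window but no core 1 rose and 2 fell. The median log2 fold change was 0.13 in genes with the core and 0.019 in those without it. Over all tested rows with a window the order was not the same. Of 345 rows with the core 8.99% rose and 13.6% fell, and of 8815 without it 11.0% rose and 10.9% fell. These counts are a description and were not tested.

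**Figure D4:**
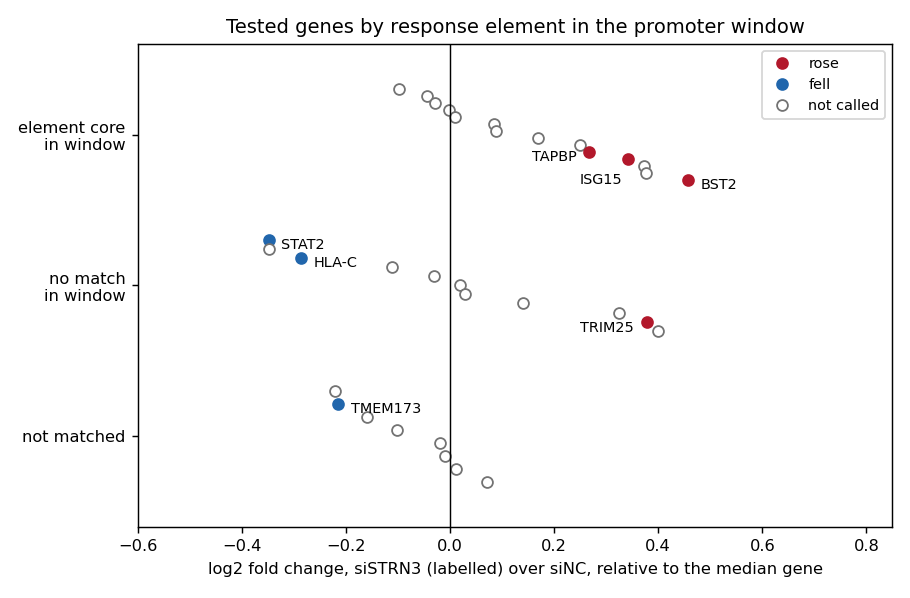
Log2 fold change of the tested genes, libraries labelled siSTRN3 over siNC libraries, relative to the median gene, on the horizontal axis; rows give whether the response element core was found in the promoter window, not found, or the gene was not matched to a window. Called genes are filled and named: 3 that rose lie in the upper row, and both rows below it hold genes that fell.

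Among 91 further genes of the same pathways 10 were listed at 0 in all 6 libraries. The interferon genes IFNB1, IFNL1, IFNE and IFNG were among them, as were the interferon-induced chemokines CXCL9, CXCL10 and CXCL11. In all 56 of the 91 passed the filter, and their median was 0.029. Of these 4 rose and 4 fell (7.14% each way, against 11.0% and 10.4% of all tested rows). As deposited none was higher by limma (none at an unadjusted p under 0.05) and 45 were lower, where 80.8% of all tested rows were lower. PDIA3, a chaperone of class I loading, fell (-0.33, adjusted p = 0.00303), as did calreticulin, CALR (-0.11, adjusted p = 0.0172; adjusted p = 0.053 without siSTRN3 replicate 2). IFNGR1, a chain of the interferon gamma receptor, fell as well, at -0.43 ± 0.070 SE (adjusted p = 0.0083). LGALS3BP, an interferon-inducible secreted glycoprotein, rose (0.37, adjusted p = 0.00295; as deposited -0.25), and UBE2L6, the conjugating enzyme for ISG15, rose (0.30, adjusted p = 0.0326; as deposited -0.31). UBE2L6 kept its call without siSTRN3 replicate 3 and lost it in the other 5 leave-outs (adjusted p = 0.0682 to 0.104).

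In the authors' deposited table, which gives p-values but no fold change, 10 of the 33 tested genes had an adjusted p under 0.05 (30.3%), beside 31.7% of the same 13004 rows. The smallest adjusted p-values were those of TRIM25 (1.83e-10) and HLA-C (1.64e-08) in the authors' deposited table. ISG15 (0.105) and TMEM173 (0.106), called here, were above the threshold in it. In the other direction, ADAR (0.00434), IRF9 (0.0181), NLRC5 (0.025), TAP2 (0.0315) and OAS3 (0.041) were under the threshold in the authors' deposited table and were not called here.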

How the data were processed

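RNA sequencing values of 6 HGC-27 libraries were used, 3 labelled siSTRN3 and 3 labelled siNC, grouped by their titles. The deposited table holds a TPM value for each gene and library and the authors' own p-value and adjusted p-value, per the file headers. HISAT2, Cufflinks and RSEM and the build GRCh38.p10 are named, with no role or version, in the submitters' processing notes. The annotation, the strand setting and the handling of multiply matching reads were not given in the sources used here. Left out were 2 rows that name no gene. TPM values share 1 total, so an RNA class with a larger share lowers the rest.

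The 13004 rows that reached 1 TPM in 3 or more of the libraries were tested with limma-trend 3.58.1 (R 4.3.3) on log2(TPM + 1), every library scaled to the same median, with Benjamini-Hochberg adjustment over all tested rows and a threshold of 0.05. The fit was tested on simulated data. It called 61 of 99 simulated 1.5-fold changes, 80 of 98 2-fold changes and 11 of 12577 unchanged genes. Changes smaller than 1.5-fold were not simulated. The 46 genes and the 91 further genes were chosen with earlier results of these data known. All 46 are accounted for; values in every library are given for called genes, the 5 with the highest level, and those below the filter with a library above 0.5 TPM; of the 91, the rule takes the 6 with the smallest adjusted p, of which 1 is not reported here, and the genes listed at 0 were named after their values were seen. Positions come from GENCODE 29 (GRCh38) and promoter windows from RefSeq (GRCh38.p14). Near copies were searched with blastn (BLAST+ 2.17.0) at 95% identity over at least 50% of the shorter transcript. Other scalings, pseudocounts, filters, a replicate block, a fit without trend and leaving out each library were tried.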

Additional observations from a re-analysis of the deposited data

How the results depend on the processing

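Direction rests on the scaling. As deposited, none of the 33 genes was higher and 24 were lower, all tested rows gave 131 higher and 10512 lower, the 91 further genes 0 higher and 45 lower, and STRN3 stood at 0.24 (adjusted p = 0.142). On that scale all 18 of the 33 genes with a positive relative change were below 0: IFNAR1 -0.16, IRF3 -0.62, MAVS -0.56, TRIM25 -0.23, ISG15 -0.26, BST2 -0.16, IFI6 -0.16, IFI35 -0.46, IFI44 -0.26, IFIT1 -0.30, IFIT5 -0.14, IFITM2 -0.57, OAS3 -0.042, SAMHD1 -0.55, HLA-B -0.32, TAP1 -0.59, TAP2 -0.44 and TAPBP -0.34. Of the further genes named, LGALS3BP stood at -0.25 and UBE2L6 at -0.31. With the 75th percentile in place of the median, 5 rose and 2 fell (IFI6 gained and TMEM173 lost its call), HLA-E stood at 0.0043 and B2M at 0.013. Without a filter 1 gene fell in place of 3, and 1 of the further genes rose. The replicate numbers did not pair the libraries (correlations of same-numbered deviations -0.080 to 0.057); with the replicate block 4 rose and 1 fell, 910 and 835 of all rows, and 2 of the further genes rose. STAT2 lost its call under the replicate block, without a filter and without the trend (adjusted p = 0.073, 0.104 and 0.0527), TMEM173 under the block, without a filter and with a pseudocount of 5 TPM (0.094, 0.0775 and 0.0516), and ISG15 without a filter (0.0606). CALR lost its call under the block and without the trend (0.0587 and 0.13), and UBE2L6 under the block and without a filter (0.0781 and 0.072). The causes were not tested. With 1 library left out, 1 to 4 of the genes rose and 1 to 2 fell, 800 to 1093 and 699 to 1081 of all rows, 1 to 3 and 3 to 5 of the further genes, and STRN3 stood at 0.67 to 0.89. Leave-outs turned the sign of small values: IFNAR2 -0.097 to 0.041, IRF3 -0.13 to 0.13, MAVS -0.0079 to 0.053, IFI44 -0.061 to 0.26, IFITM2 -0.025 to 0.15, SAMHD1 -0.017 to 0.041, HLA-E -0.028 to 0.0083, B2M -0.029 to 0.034, TAP1 -0.035 to 0.059 and TAP2 -0.12 to 0.32. Read depth is unknown, so values under 1 TPM give no order between genes.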
